A study of Arabidopsis thaliana with 44 samples.

Results

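Transcript levels in sw:cbf123 and sw:cbf23 plants of Arabidopsis thaliana were compared after 2 weeks at 4 °C. The comparison concerns the further loss of CBF1 in plants whose name already marks CBF2 and CBF3 as mutated. It uses no library of the SW wild type. Loss of CBF1 cannot be told apart from any other difference between these lines, such as their alleles of CBF2 and CBF3. All genes of the deposited table entered, and a gene was kept when either line reached 1 FPKM, a level scaled to transcript length and library size. Of 33557 genes, 18132 were kept. AT5G65090 fell just inside this limit with 1.0002 FPKM in its higher line, and AT4G19050 just outside it with 0.9997 FPKM.

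The series holds 44 RNA-seq libraries of 8 lines, 2 libraries in each of 22 groups, from the whole aerial part of plants grown on soil for 23 days at 22 °C in a 12-h photoperiod. Cold-treated plants were then kept at 4 °C and about 35 µmol m-2 s-1 for 24 h or 2 weeks, and all plants were sampled at ZT4. SW is an ecotype from Sweden. The line sw:cbf123 is SW with CRISPR/Cas9-induced mutations in CBF1, CBF2 and CBF3. The line sw:cbf23 is, by its name, SW with CBF2 and CBF3 mutated and CBF1 intact, and its alleles were not described in the sources used here. The line sw:cbf2 carries a mutated CBF2 alone. The sw:cbf123 and sw:cbf23 groups at 2 weeks held 4 libraries in all, and the table gives 1 value per group, which the authors pooled from 2 experimental replicates. No difference below therefore has a replicate check or a p-value, and the depth of the libraries is unknown. A gene is called higher or lower where the log2 ratio of sw:cbf123 over sw:cbf23, with 0.5 FPKM added to both, was at least 1 or at most -1. In such bulk tissue, fewer cells of a type and less RNA per cell cannot be told apart.

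The CBF (C-repeat binding factor) genes, also called DREB1 genes, encode AP2/ERF transcription factors and lie side by side on chromosome 4. They are induced within minutes of cold and bind the CRT/DRE element, whose core is CCGAC, in the promoters of cold-regulated (COR) genes. Many COR genes encode very hydrophilic proteins, among them dehydrins, which stabilize membranes and proteins when cells freeze and lose water. Other targets make compatible solutes such as raffinose. The set of genes that responds both to cold and to CBF overexpression is called the CBF regulon.

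The mutations of sw:cbf123 are shown because CBF1 is the gene by which the lines are meant to differ. Each pair below gives the SW sequence and then the sw:cbf123 sequence of the coding strand, 5′ to 3′, from the alignment supplied with the study. Capitals mark the bases deleted from SW or inserted in the mutant.
CBF1, SW: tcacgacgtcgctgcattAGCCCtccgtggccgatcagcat
CBF1, sw:cbf123: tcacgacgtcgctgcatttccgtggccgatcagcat
CBF2, SW: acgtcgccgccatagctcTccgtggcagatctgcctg
CBF2, sw:cbf123: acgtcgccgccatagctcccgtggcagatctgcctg
CBF3, SW: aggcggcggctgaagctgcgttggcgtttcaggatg
CBF3, sw:cbf123: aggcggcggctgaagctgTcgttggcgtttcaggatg
The SW stretches match the minus strand of chromosome 4 of TAIR10.1 at 13022265 to 13022305 for CBF1, 13015779 to 13015815 for CBF2 and 13018592 to 13018627 for CBF3, each within the coding sequence. CBF1 lost 5 bases of 642, CBF2 lost 1 of 651 and CBF3 gained 1. The study's text describes the CBF3 change as a deletion, whereas the alignment shows an insertion, and the alignment is followed here. All 3 changes shift the reading frame. The first in-frame stop then follows 102 codons in CBF1 instead of 213 in SW, 132 in CBF2 instead of 216 and 137 in CBF3 instead of 216.

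None of the CBF genes was called between the lines at 2 weeks. CBF1 stood at 1.76 FPKM in sw:cbf123 and 2.37 FPKM in sw:cbf23 (log2 ratio -0.34). CBF2 stood at 29.1 FPKM in sw:cbf123 and 17.7 FPKM in sw:cbf23 (0.70), and CBF3 at 21.1 and 25.7 FPKM in sw:cbf123 and sw:cbf23 (-0.27). At 24 h all 3 were higher in level in sw:cbf123, with 13.0 FPKM against 8.59 FPKM in sw:cbf23 for CBF1, 108 against 49.4 FPKM for CBF2 and 144 against 100 FPKM for CBF3, and only CBF2 passed the limit (1.12). In warm plants CBF1 and CBF2 were below 0.2 FPKM in both lines and CBF3 was at 1.08 FPKM in both. A frameshift does not remove the transcript, so these levels do not check the labels.

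**Figure D1:**
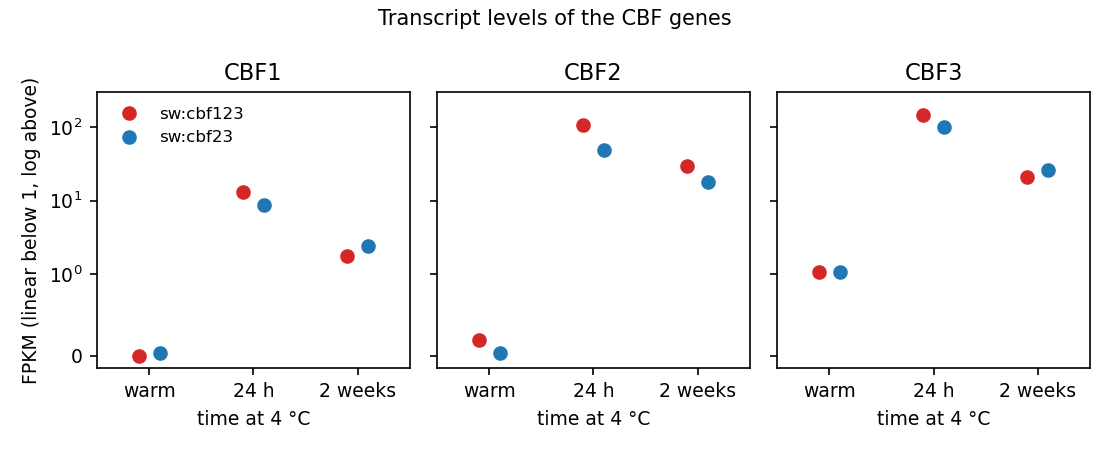
FPKM (vertical axis, linear below 1 and logarithmic above) of CBF1, CBF2 and CBF3 in sw:cbf123 (red, left) and sw:cbf23 (blue, right) in the warm and after 24 h and 2 weeks at 4 °C; each point is the authors' pooled value of a group. All 3 transcripts were higher after 24 h than after 2 weeks in both lines, and CBF1 was the lowest of the 3 in the cold.

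None of the other DREB genes was called at 2 weeks. Of the 6 DREB genes kept, CBF genes included, 5 had a ratio below 0 (median -0.22). DREB2C, a relative of the drought-induced DREB2 factors, had 2.60 FPKM in sw:cbf123 and 4.201 FPKM in sw:cbf23 (-0.60). DREB2A had 6.41 FPKM in sw:cbf123 and 7.10 FPKM in sw:cbf23, and DREB2B had 4.36 FPKM in sw:cbf123 and 4.98 FPKM in sw:cbf23. CBF4, DDF1 and DDF2, close relatives of the CBF genes, were under 1 FPKM in both lines. At 24 h CBF4 and DDF1 had been called lower, with 0.459 FPKM in sw:cbf123 against 1.62 FPKM in sw:cbf23 for CBF4 and 0.0144 against 1.18 FPKM for DDF1. Of 11 regulators upstream of the CBF genes, 10 were kept and none was called at 2 weeks. Among these ICE1, a bHLH activator of the pathway, stood at 20.9 FPKM in sw:cbf123 and 20.8 FPKM in sw:cbf23, and CAMTA3, a calmodulin-binding activator, at 15.7 and 15.1 FPKM.

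Across all genes kept at 2 weeks the lines were close. The median log2 ratio was -0.03, with quartiles of -0.12 and 0.05. At this time 184 genes were called lower in sw:cbf123 (1.01% of those kept) and 96 higher (0.529%). Many of these calls rest on values of exactly 0: 54 of the genes called lower and 35 of those called higher were listed at 0 in one of the lines. Of all calls, 40 lower and 46 higher ones were not protein-coding genes in RefSeq or had no match there. All genes above 0 in both lines gave 130 lower calls (0.721%) and 61 higher calls (0.338%). The protein-coding genes above 0 in both lines numbered 114 lower and 38 higher, and of these 60 and 14 reached 5 FPKM in the higher line. The descriptions below turn on these genes.

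**Figure D2:**
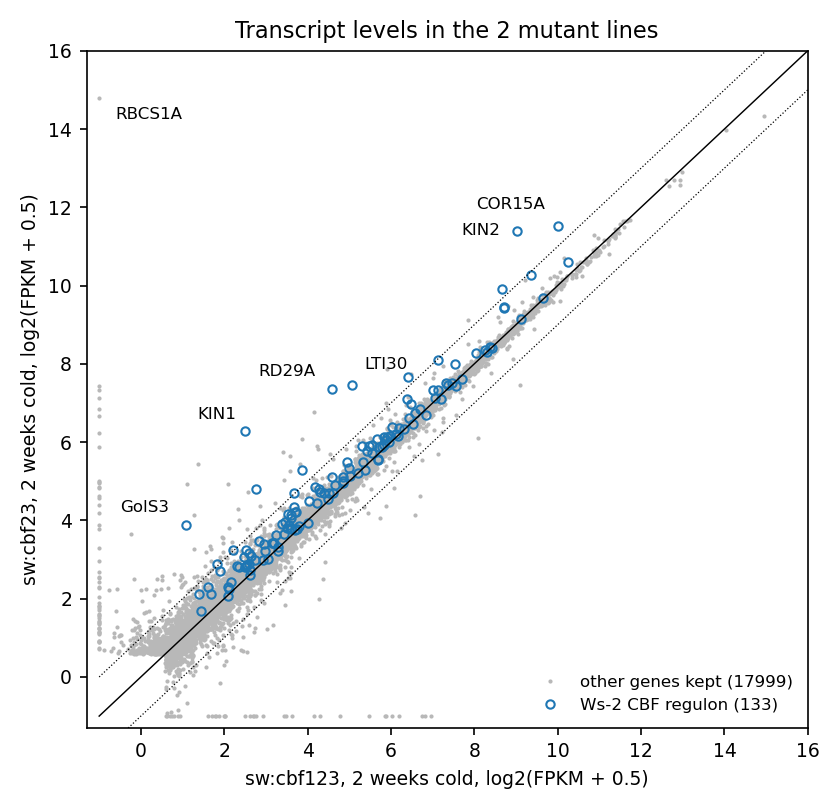
Level of each gene kept at 2 weeks as log2(FPKM + 0.5) in sw:cbf123 (horizontal) and sw:cbf23 (vertical), with the 133 kept genes of the Ws-2 CBF regulon as blue circles and all others in grey; the solid line marks equal levels and the dotted lines 2-fold differences. The blue circles past a dotted line all lie on the side of higher levels in sw:cbf23, and the rows of points along the left and lower edges are genes listed at 0 in one line.

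The CBF regulon as defined in another accession, Ws-2, holds 136 genes induced by cold and by CBF overexpression. Of its 133 genes kept at 2 weeks, 13 were called lower in sw:cbf123 and none higher. The share called lower was 9.77%, against 1.01% of all genes kept. Its median log2 ratio was -0.25, against -0.03 over all genes kept, and 116 of the 133 had a ratio below 0. The summed level of the list was 12312 FPKM in sw:cbf123 and 19778 FPKM in sw:cbf23. The largest fall in the list was that of KIN1 and its largest positive ratio was 0.15, of KAT5. A second list, of 44 regulon genes in common between SW and other accessions, was drawn partly from the 24-h libraries of sw:cbf123 and is not independent evidence of a direction. Of its 42 genes kept, 8 were called lower at 2 weeks, against 1.01% of all genes kept, and none higher, with a median of -0.48. Of these 8, 6 are Ws-2 members described below. The other two, AT5G17460 and AT4G30830, had 4.59 and 1.07 FPKM in sw:cbf123 and 15.7 and 4.32 FPKM in sw:cbf23 (-1.67 and -1.62).

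**Figure D3:**
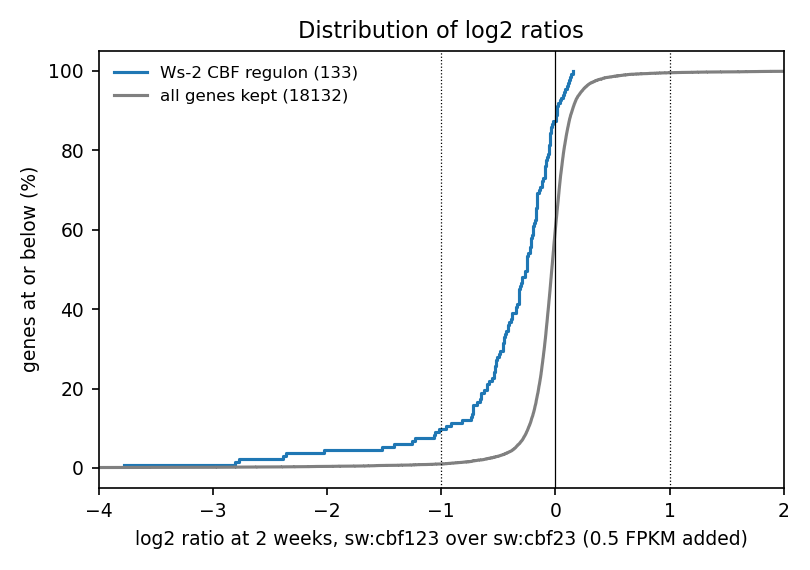
Cumulative share of genes (vertical, percent) at or below each log2 ratio of sw:cbf123 over sw:cbf23 at 2 weeks (horizontal) for the 133 kept Ws-2 CBF regulon genes (blue) and all 18132 kept genes (grey); the dotted lines mark ratios of -1 and 1. The blue curve lies left of the grey one, with medians of -0.25 and -0.03, and ends at 0.15.

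Several of the larger falls in the Ws-2 list were in genes for small hydrophilic and dehydrin proteins. KIN1 (AT5G15960), which encodes a small hydrophilic cold-induced protein, had 5.13 FPKM in sw:cbf123 and 76.9 FPKM in sw:cbf23 (log2 ratio -3.78). Its neighbour KIN2 (AT5G15970, also COR6.6) had 521 FPKM in sw:cbf123 and 2680 FPKM in sw:cbf23 (-2.36). KIN1 and KIN2 are near-identical tandem copies on chromosome 5, so how their reads were divided is uncertain, but both were lower in sw:cbf123. RD29A (AT5G52310, also LTI78 or COR78), a widely used marker of cold and drought responses, had 23.6 FPKM in sw:cbf123 and 164 FPKM in sw:cbf23 (-2.77). The dehydrin gene LTI30 had 33.0 FPKM in sw:cbf123 and 175 FPKM in sw:cbf23 (-2.38). These 4 genes fell more than 5-fold on the scale with 0.5 FPKM added, by 13.7-fold for KIN1, 6.83-fold for RD29A, 5.22-fold for LTI30 and 5.14-fold for KIN2.

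COR15A, which encodes a chloroplast protein that protects membranes during freezing, was the most abundant member called. It had 1029 FPKM in sw:cbf123 and 2948 FPKM in sw:cbf23 (-1.52). Its tandem copy COR15B stayed just under the limit, with 651 FPKM in sw:cbf123 and 1229 FPKM in sw:cbf23 (-0.92). The dehydrin genes ERD10 and COR47 fell on either side of it, ERD10 with 84.0 FPKM in sw:cbf123 and 201 FPKM in sw:cbf23 (-1.25) and COR47 with 140 and 272 FPKM in sw:cbf123 and sw:cbf23 (-0.95). Other such genes were close in level. The dehydrin gene ERD14 stood at 364 FPKM in sw:cbf123 and 366 FPKM in sw:cbf23, and the ABA-responsive dehydrin gene RAB18 at 9.56 and 9.32 FPKM. Of a list of 17 COR and LEA genes, 15 were kept, with a median log2 ratio of -0.92. Of these, 6 were called lower (40.0%, against 1.01% of all genes kept) and none higher. The 6 are KIN1, KIN2, RD29A, LTI30, COR15A and ERD10, already counted among the Ws-2 genes called lower.

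Of 13 listed genes of solute and starch metabolism, all kept, 1 was called lower (7.69%, against 1.01% of all genes kept) and none higher. GolS3 (AT1G09350), a galactinol synthase that supplies the first precursor of raffinose, had 1.62 FPKM in sw:cbf123 and 14.3 FPKM in sw:cbf23 (-2.80). Its relatives GolS1 and GolS2 had 15.9 and 8.38 FPKM in sw:cbf123 and 21.9 and 7.02 FPKM in sw:cbf23. BAM3, a chloroplast beta-amylase and the most abundant member of this list of 13 genes, stood at 744 FPKM in sw:cbf123 and 771 FPKM in sw:cbf23. The proline synthesis gene P5CS1 stood at 175 FPKM in sw:cbf123 and 181 FPKM in sw:cbf23. The median ratio of the list was -0.16, against -0.03 over all genes kept.

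The remaining Ws-2 members called lower had varied roles. CIPK25, a protein kinase of calcium signalling, had 14.1 FPKM in sw:cbf123 and 38.4 FPKM in sw:cbf23 (-1.41). EARLI1, which encodes a lipid-transfer-like cell wall protein, had 409 FPKM in sw:cbf123 and 957 FPKM in sw:cbf23 (-1.23). FMO GS-OX4, an enzyme that oxidizes the side chain of aliphatic glucosinolates, had 4.09 FPKM in sw:cbf123 and 9.03 FPKM in sw:cbf23 (-1.05). The uncharacterized genes AT1G16850 and AT1G68500 had ratios of -2.03 and -1.06, and AT5G13200, which encodes a GRAM domain protein, had -1.02. The last of these genes lie close to the limit of -1.

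Readings from other libraries were at hand for the same lines in the warm and at 24 h. At 24 h, 383 genes were called lower (2.09% of 18319 kept) and 117 higher (0.639%). The Ws-2 list then had 23 genes lower and none higher, with a median ratio of -0.50, against -0.01 over all genes. Those 23 genes, chosen on the 24-h libraries, had a median ratio of -0.60 at 2 weeks over the 21 of them kept, and 20 of the 21 were below 0. In the whole Ws-2 list 116 of 133 kept were below 0 at 2 weeks, as were 60.2% of all genes kept. Of the 13 members called at 2 weeks 8 had also been called lower at 24 h, which is 61.5% of the 2-week calls and 34.8% of the 24-h calls. In the warm, 155 genes were lower (0.844% of 18367 kept) and 128 higher (0.697%). None of the Ws-2 genes was lower in the warm and 5 were higher, with a list median of 0.21, against -0.01 over all genes.

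The warm difference ran the other way for some of the most cold-responsive genes. COR15A had 190 FPKM in sw:cbf123 and 91.2 FPKM in sw:cbf23 in warm plants (log2 ratio 1.05), while at 24 h it had 5671 FPKM in sw:cbf123 and 9834 FPKM in sw:cbf23 (-0.79). COR15B had 61.3 FPKM in sw:cbf123 and 30.3 FPKM in sw:cbf23 in the warm (1.0), and the plastid membrane gene COR413-TM1 had 84.6 and 38.6 FPKM (1.12). P5CS1 and AT1G11210 were the other two Ws-2 genes higher in the warm, with ratios of 1.02 and 1.06. KIN2 in warm plants had 184 FPKM in sw:cbf123 and 101 FPKM in sw:cbf23 (0.86), under the limit. All of these genes had ratios below 0 at 2 weeks.

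The 13 genes were lower at 2 weeks than at 24 h in both lines, and for 10 of them the ratio between the lines was more negative at 2 weeks. KIN1 had 81.0 FPKM in sw:cbf123 and 378 FPKM in sw:cbf23 at 24 h (-2.21), against the -3.78 at 2 weeks. RD29A had 1258 FPKM in sw:cbf123 and 2627 FPKM in sw:cbf23 at 24 h (-1.06), against -2.77 at 2 weeks. KIN2 moved most of the 13, since its 24-h levels of 6690 FPKM in sw:cbf123 and 9223 FPKM in sw:cbf23 gave a ratio of -0.46, against -2.36 at 2 weeks. LTI30 kept about the same ratio, with 676 FPKM in sw:cbf123 and 3652 FPKM in sw:cbf23 at 24 h (-2.43), and so did GolS3, with 92.6 and 609 FPKM (-2.71). FMO GS-OX4 had the larger ratio at 24 h (-2.28). These 13 were chosen by their 2-week values, so the count of 10 is a description.

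**Figure D4:**
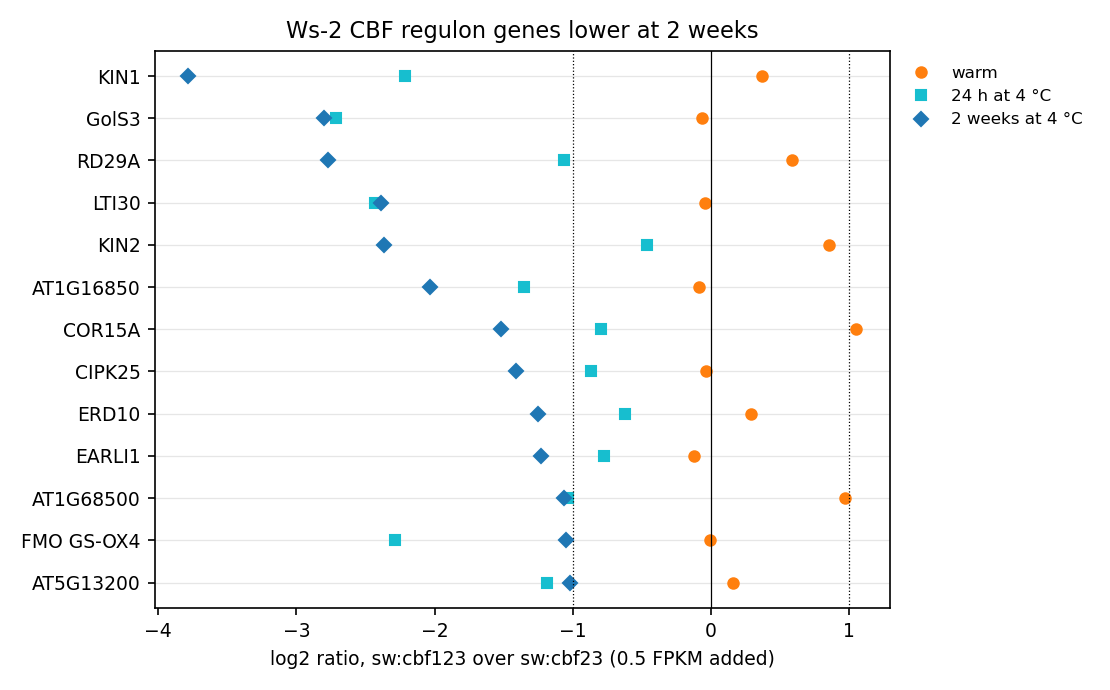
Log2 ratio of sw:cbf123 over sw:cbf23 (horizontal, 0.5 FPKM added) for the 13 Ws-2 CBF regulon genes called lower at 2 weeks, in the warm (orange circles), at 24 h (cyan squares) and at 2 weeks (blue diamonds); the dotted lines mark -1 and 1. The warm points scatter around 0 and up to 1.05 for COR15A, and all 24-h and 2-week points lie below 0.

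Each line can also be set against its own warm plants. This reading uses the same 2-week values again, so it is not separate from the comparison above. It also takes in the warm difference between the lines, where the Ws-2 list had a median ratio of 0.21. In sw:cbf123, 31 of 133 Ws-2 genes were at least 2-fold higher at 2 weeks than in the warm, and 58 of 133 were in sw:cbf23. Over all genes the shares were 9.22% in sw:cbf123 and 9.08% in sw:cbf23. All 31 genes were among the 58. The median log2 ratio of 2 weeks over warm for the list was 0.25 in sw:cbf123 and 0.89 in sw:cbf23. Of the 58 genes induced in sw:cbf23, 12 were among the 13 called lower in sw:cbf123. Both selections use the sw:cbf23 value at 2 weeks, so part of this overlap is built in. KIN1 rose by a log2 ratio of 1.07 over warm plants in sw:cbf123 and 5.22 in sw:cbf23, and RD29A by 1.16 in sw:cbf123 and 4.52 in sw:cbf23. COR15A was still induced in sw:cbf123 (2.44, against 5.01 in sw:cbf23), as was LTI30 (3.0, against 5.34 in sw:cbf23). ERD10 was at 0.03 in sw:cbf123 and 1.58 in sw:cbf23, and GolS3 at -0.30 in sw:cbf123 and 2.44 in sw:cbf23.

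The levels in the 4 SW lines at 2 weeks stand side by side as follows. KIN1 had 5.13 FPKM in sw:cbf123, 76.9 FPKM in sw:cbf23, 339 FPKM in sw:cbf2 and 559 FPKM in SW. GolS3 had 1.62 FPKM in sw:cbf123, 14.3 FPKM in sw:cbf23, 32.9 FPKM in sw:cbf2 and 206 FPKM in SW. COR15A had 1029 FPKM in sw:cbf123, 2948 FPKM in sw:cbf23, 5525 FPKM in sw:cbf2 and 6830 FPKM in SW. For each of these genes the levels stood in that order of lines. KIN2 did not follow it, with 521 FPKM in sw:cbf123, 2680 FPKM in sw:cbf23, 4069 FPKM in sw:cbf2 and 2532 FPKM in SW. With 1 pooled value a line, the spread between replicates is unknown for each step.

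**Figure D5:**
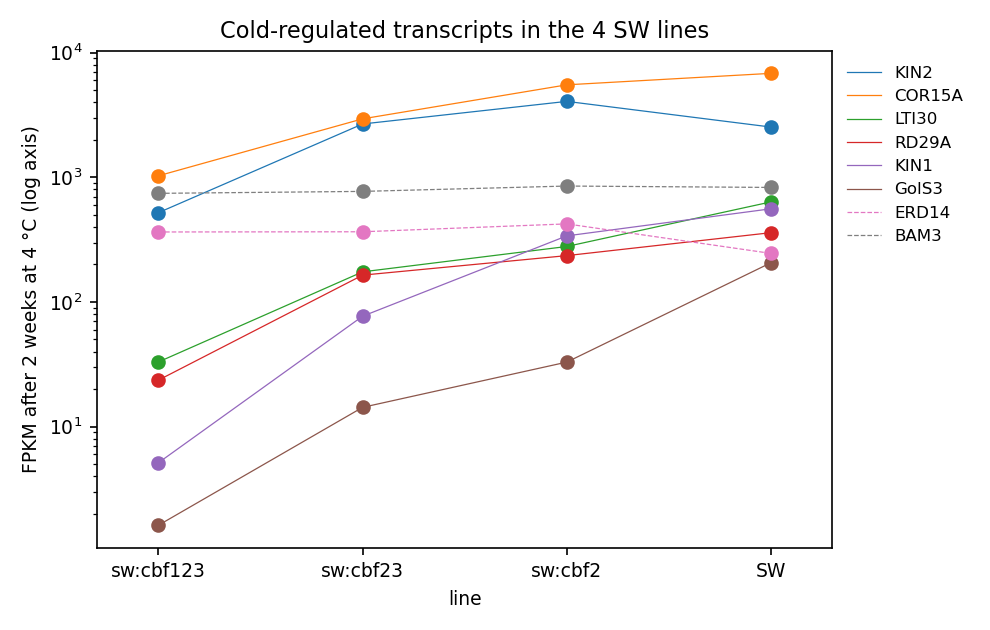
FPKM after 2 weeks at 4 °C (vertical, log axis) in sw:cbf123, sw:cbf23, sw:cbf2 and SW for 6 cold-regulated genes called lower in sw:cbf123 than in sw:cbf23 (solid lines) and 2 that were not called (ERD14 and BAM3, dashed lines); each point is the authors' pooled value of a group, and lines join the points of a gene. The solid lines climb from sw:cbf123 to sw:cbf23, GolS3 with 1.62 FPKM in sw:cbf123 and 14.3 FPKM in sw:cbf23, while BAM3 stays between 744 and 851 FPKM.

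Since the CBF proteins bind CRT/DRE elements, matches to the element were counted in promoters. Whether these counts relate to the falls was not tested. The letters ACCGAC and GCCGAC were searched on both strands in the 1000 bases before the translation start of the Columbia reference, TAIR10.1. Of the 13 Ws-2 genes called lower, 10 held at least 1 match (76.9%) and 6 held 2 or more. Of the other 120 Ws-2 genes kept, 81 held a match (67.5%) and 30 held 2 or more. Of the 101 further protein-coding genes called lower and above 0 in both lines, 29 held a match (28.7%). Among 17414 promoters of protein-coding genes kept and above 0 in both lines, 25.2% held a match and 4.21% held 2 or more. Among all 27443 promoters the shares were 23.1% and 3.72%. RD29A held 4 matches, COR15A, LTI30, GolS3 and AT1G16850 held 3 each, KIN1 and KIN2 held 1 each, and CIPK25, EARLI1 and FMO GS-OX4 held none.

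Stretches of 3 promoters with matches within 300 bases before the transcript start are printed, because these genes are among those that fell most or were most abundant. They are from RefSeq's TAIR10.1, 5′ to 3′ on the strand of the gene, with the matches in capitals.
COR15A, chr2:17712390-17712487, minus strand: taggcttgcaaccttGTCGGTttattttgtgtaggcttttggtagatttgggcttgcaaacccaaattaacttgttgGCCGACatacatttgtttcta
RD29A, chr5:21240561-21240703, plus strand: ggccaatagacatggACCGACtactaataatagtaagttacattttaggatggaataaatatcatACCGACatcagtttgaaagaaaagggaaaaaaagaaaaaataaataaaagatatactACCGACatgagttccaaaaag
GolS3, chr1:3019408-3019443, plus strand: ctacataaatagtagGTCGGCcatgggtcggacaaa
The COR15A stretch holds 2 matches, that of RD29A 3 and that of GolS3 1. No match lay within 300 bases before the transcript start of KIN1. A match of letters is a description, and whether the SW genome carries the same bases was not tested.

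Listed genes of the first wave of cold-induced transcription factors, which are induced alongside the CBF genes, gave no call at 2 weeks. The list used here is shorter than the first-wave set that the study describes. Of 18 listed, 16 were kept and the median ratio was -0.05. MYB44, a factor of stress responses and the second most abundant member, stood at 28.3 FPKM in sw:cbf123 and 27.0 FPKM in sw:cbf23, and WRKY33, a defence regulator, at 35.8 and 30.2 FPKM. At 24 h, 5 of the 17 then kept had been called lower, against 2.09% of all genes, and WRKY33 then stood at 15.2 FPKM in sw:cbf123 and 46.3 FPKM in sw:cbf23 (-1.58). In the touch, wound and jasmonate list 4 of 18 kept were lower and 1 higher at 24 h, against 2.09% and 0.639% of all genes, and 1 of 16 kept was lower at 2 weeks, against 1.01% of all genes. That last gene was CML38, a calmodulin-like protein, with 3.17 FPKM in sw:cbf123 and 7.32 FPKM in sw:cbf23 (-1.09). AOC2 and LOX2, jasmonate synthesis enzymes and abundant members, had 741 and 544 FPKM in sw:cbf123 and 648 and 491 FPKM in sw:cbf23.

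Of 17 genes of the salicylate pathway and its outputs, 16 were kept, 2 were called lower (12.5%, against 1.01% of all genes kept) and none higher, with a median ratio of -0.20. PR2, a secreted beta-1,3-glucanase, had 230 FPKM in sw:cbf123 and 555 FPKM in sw:cbf23 (-1.27). PR5, a thaumatin-like protein, had 598 FPKM in sw:cbf123 and 1139 FPKM in sw:cbf23 (-0.93), and PR1 had 1878 and 2508 FPKM (-0.42). ALD1, an enzyme of pipecolic acid synthesis, was called at a low level, with 0.392 FPKM in sw:cbf123 and 1.37 FPKM in sw:cbf23. The salicylate synthesis gene ICS1 had a log2 ratio of -0.21 and the receptor gene NPR1 one of 0.02. The senescence-associated gene SAG13, a short-chain dehydrogenase, had 10.2 FPKM in sw:cbf123 and 53.0 FPKM in sw:cbf23 (-2.32), and had not been called at 24 h (48.2 FPKM in sw:cbf123 and 58.4 FPKM in sw:cbf23). ORE1, a NAC factor of leaf senescence, stood at 26.1 FPKM in sw:cbf123 and 23.9 FPKM in sw:cbf23.

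The remaining pathway and tissue lists gave no call apart from RBCS1A and a seed gene, both taken up below. None of 17 kept flavonoid genes was called, and the entry enzyme CHS stood at 343 FPKM in sw:cbf123 and 337 FPKM in sw:cbf23. None of 8 kept flowering genes was called, and the floral repressor FLC stood at 156 FPKM in sw:cbf123 and 154 FPKM in sw:cbf23. None of 13 clock genes was called, with ratios from -0.12 to 0.16, and CCA1 stood at 200 FPKM in sw:cbf123 and 205 FPKM in sw:cbf23. None of 10 kept gibberellin genes, 9 kept abscisic acid genes, 13 kept nutrient genes or 2 kept heat-shock genes was called. The most abundant of these were RGA, a DELLA repressor (19.1 FPKM in sw:cbf123 and 20.99 FPKM in sw:cbf23), ABI1, a phosphatase of abscisic acid signalling (35.0 and 36.0 FPKM), FER1, an iron store (275 and 381 FPKM) and HSP101 (2.36 and 2.81 FPKM).

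The lower genes outside these lists were chosen after their values were seen, as the largest ratios among protein-coding genes above 0 in both lines. The deepest falls of this kind were in AT4G12490 and AT4G12500, which encode lipid-transfer-like proteins and lie beside EARLI1 on chromosome 4. AT4G12490 had 2.103 FPKM in sw:cbf123 and 42.7 FPKM in sw:cbf23 (-4.05), and AT4G12500 had 1.66 and 30.3 FPKM (-3.83). The fourth gene of that tandem array, AZI1, which primes systemic immunity, had 1220.4 FPKM in sw:cbf123 and 1549 FPKM in sw:cbf23 (-0.34). The array's genes resemble each other, so the division of reads among them is uncertain. At 24 h the ratio was -1.56 for AT4G12490, -1.48 for AT4G12500, -0.77 for EARLI1 and -1.11 for AZI1. In SW at 2 weeks AT4G12490 had 34.7 FPKM, close to its level in sw:cbf23.

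Some enzyme genes were among those picked in this way, which shows nothing of their families as a whole. NIT2, a nitrilase, had 3.75 FPKM in sw:cbf123 and 30.1 FPKM in sw:cbf23 (-2.84). The glutathione S-transferase genes GSTU8 and GSTU24 had 4.57 and 58.4 FPKM in sw:cbf123 and 19.1 and 128 FPKM in sw:cbf23 (-1.95 and -1.12). UGT74F2, a salicylate glucosyltransferase, had 3.43 FPKM in sw:cbf123 and 11.2 FPKM in sw:cbf23 (-1.58). For these 4 genes the SW wild type was nearer to sw:cbf123 at 2 weeks. SW had 5.71 FPKM of NIT2, 7.24 FPKM of GSTU8, 52.6 FPKM of GSTU24 and 4.76 FPKM of UGT74F2. The sw:cbf2 line was nearer to sw:cbf23 for NIT2, GSTU8 and UGT74F2, with 29.3, 17.9 and 9.59 FPKM. Over the 19 tau-class glutathione S-transferase genes kept, 3 were lower (15.8%, against 1.01% of all genes kept), none was higher and the median was -0.17. This family and those that follow were chosen after the values were seen, so their shares can be raised by that choice. Of the 52 kept genes that RefSeq describes as UDP-glycosyltransferases, which leaves out UGT74F2, 1 was lower (1.92%) and none higher, with a median of -0.07, and it was UGT76B1. Among 44 WRKY genes kept, 2 were lower (4.55%), and both stayed under 5 FPKM. They were WRKY75 and WRKY8, with 0.527 and 1.71 FPKM in sw:cbf123 and 3.37 and 4.06 FPKM in sw:cbf23.

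The higher genes were fewer. Of the 38 protein-coding genes above 0 in both lines, 24 stayed under 5 FPKM in both. UMAMIT47, a transporter of the nodulin MtN21 family, had 6.07 FPKM in sw:cbf123 and 1.73 FPKM in sw:cbf23 (1.56). PUP18, a purine permease, had 6.13 FPKM in sw:cbf123 and 1.88 FPKM in sw:cbf23 (1.48), and GAD4, a glutamate decarboxylase that makes GABA, had 5.53 and 2.02 FPKM (1.26). A few genes that modify indole glucosinolates, also picked with their values in view, were among them. CYP81F2, the hydroxylase of that step, had 4.89 FPKM in sw:cbf123 and 1.99 FPKM in sw:cbf23 (1.12), and the methyltransferase genes IGMT1 and IGMT3 had 9.88 and 2.48 FPKM in sw:cbf123 and 4.19 and 0.685 FPKM in sw:cbf23. IGMT4, the most abundant of the 8 genes of this group, was not called, with 128 FPKM in sw:cbf123 and 103 FPKM in sw:cbf23. In the warm and at 24 h no gene of this group was higher, and 1 was lower in the warm.

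The genes called at 2 weeks were then read in the 24-h and warm libraries. Of the 114 protein-coding genes lower at 2 weeks and above 0 in both lines, 102 had a ratio below 0 at 24 h, with a median of -0.84, and 48 were called lower. Of the 38 higher genes, 19 had a ratio above 0 at 24 h, with a median of 0.05, and 7 were called higher. Over all genes kept at 24 h, 51.0% had a ratio below 0, 2.09% were called lower and 0.639% higher. The 114 and 38 include genes not kept at 24 h. Of those kept then and above 0 in both lines at both times, 94 of 103 lower genes were below 0. Of such higher genes 8 of 21 were above 0. In the warm the medians were -0.08 for the lower and 0.01 for the higher genes. Read the other way, the protein-coding genes called lower at 24 h and above 0 in both lines at both times numbered 295, and of the 243 kept at 2 weeks 189 were below 0 (median -0.35), against 60.2% of all genes kept. With all genes counted, 64 were called lower and 16 higher at both 24 h and 2 weeks. The 64 are 34.8% of the 2-week and 16.7% of the 24-h lower calls. Another 28 genes were called in opposite directions at these times, and of the 96 genes higher at 2 weeks 16 were lower at 24 h, as many as were higher. For the warm and 2 weeks the counts were 26 lower and 15 higher, and 25 genes were called in opposite directions.

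At all 3 times, 8 genes were called lower and 4 higher. Of the lower ones, EXT4, an extensin of the cell wall, had 11.1, 38.5 and 89.6 FPKM in sw:cbf123 (warm, 24 h and 2 weeks), against 31.1, 93.6 and 215 FPKM in sw:cbf23. The chitinase gene AT2G43570 had 2.94, 43.6 and 18.2 FPKM in sw:cbf123 at those times, against 8.77, 117 and 59.1 FPKM in sw:cbf23. The ratios at 2 weeks were -1.26 for EXT4 and -1.67 for the chitinase. The small nucleolar RNA gene U3B and the uncharacterized genes AT2G36440, AT2G13422, AT5G26620, AT2G34238 and AT2G41082 were the other lower ones. In sw:cbf123, AT2G36440, AT2G13422 and AT5G26620 were listed at 0 in the warm and at 2 weeks, and AT2G34238 in the warm. A call that rests on a listed 0 measures no fold. AT2G41082 had 22.9 FPKM in sw:cbf123 and 51.5 FPKM in sw:cbf23 at 2 weeks, but 3.91 FPKM in SW. The higher ones were the microRNA gene MIR844 and the uncharacterized genes AT4G05071, AT2G13463 and AT1G14642. These uncharacterized genes had 6.06, 5.39 and 9.57 FPKM in sw:cbf123 at 2 weeks, against a listed 0, 1.06 and 3.89 FPKM in sw:cbf23. In sw:cbf23, MIR844 and AT4G05071 were listed at 0 at all 3 times, and AT2G13463 and AT1G14642 at 24 h.

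The 10 largest falls and the 10 largest rises among genes with 5 FPKM or more were all listed at 0 in one line, and no fold is given for them. RBCS1A, the main small-subunit gene of Rubisco, was listed at 0 in sw:cbf123 at 2 weeks and had 28173 FPKM in sw:cbf23. Such a 0 can be a failed estimate, so the value is given as listed and not read as a level. RBCS1A had 19175 FPKM in sw:cbf123 at 24 h. Its paralogs RBCS1B, RBCS2B and RBCS3B had 648, 156 and 311 FPKM in sw:cbf123 and 565, 144 and 297 FPKM in sw:cbf23. The other 14 genes of the photosynthesis list had ratios from -0.12 to 0.20, and the abundant antenna gene LHCB5 stood at 3232 FPKM in sw:cbf123 and 3195 FPKM in sw:cbf23. The other falls were U60.1F, AT2G20723, ATCG00060, AT1G19373, AT2G35384, ATCG00200, ATCG00320, MIR390a and AT3G29633. The rises were AT4G34035, AT2G33950, ATCG00100, AT5G13225, AT2G35747, ATCG00250, ATCG00230, AT1G28820, AT5G44286 and AT2G20721. Exon lengths, where RefSeq gives a model, were under 110 bases for all of these except RBCS1A and AT3G29633.

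Tissue markers were looked at for differences in make-up between the lines. Of 5 leaf mesophyll markers, the 4 other than RBCS1A had ratios from -0.10 to 0.24. The 5 flower markers were under 1 FPKM in both lines. Of 5 root markers, 3 were kept and none was called, and PYK10 stood at 1.24 FPKM in sw:cbf123 and 1.36 FPKM in sw:cbf23. Of 4 seed markers, 3 were under 1 FPKM in both lines and were not kept. The fourth, the oleosin gene OLEO1 for a coat protein of seed oil bodies, had 1.06 FPKM in sw:cbf123 and 0.0264 FPKM in sw:cbf23. The summed level of the 4 seed markers was 2.39 FPKM in sw:cbf123 and 0.163 FPKM in sw:cbf23 at 2 weeks. In sw:cbf123 it was 0.0286 FPKM in the warm and 0.150 FPKM at 24 h. The seed protein genes SESA3 (1.37 FPKM in sw:cbf123 and 0.0526 FPKM in sw:cbf23) and M10 (1.16 and 0.0415 FPKM), picked after their values were seen, also reached 1 FPKM in sw:cbf123 alone. All 3 genes passed the filter through sw:cbf123, so their direction was set by it. Their part in the other differences was not tested.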

How the data were processed

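The authors sequenced RNA of 44 libraries and aligned the reads to TAIR10 with Bowtie2 2.2.6 and TopHat 2.1.0. They estimated FPKM with Cufflinks 2.2.1, and the submitters' processing notes name Cufflinks 2.1.1. The deposited FPKM table holds 22 columns, 1 per group, in which Cuffdiff combined the 2 libraries of a group. Length and library size are scaled out, fragments per library are unknown, and neither a spread nor a counting error can be set on a value. The FPKM sums were 925384 for sw:cbf123 and 940238 for sw:cbf23 at 2 weeks.

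Log2 ratios were taken here with 0.5 FPKM added, on genes at 1 FPKM or more in either line, and called at 1 or -1. The script was tested on simulated data. Python 3.11.15, NumPy 2.4.6, pandas 2.3.3 and statsmodels 0.14.6 were used. Names, gene types and promoters came from RefSeq's TAIR10.1, whose coordinates are printed, and 32813 of the IDs matched it and 744 did not. The table itself holds no coordinates.

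Genes were named by rule: the DREB list; listed genes called at 2 weeks or most abundant in their list; the Ws-2 genes called; the 10 largest rises and falls at 5 FPKM or more; genes called alike at all 3 times; and up to 5 genes called in opposite directions in the warm and at 2 weeks. The comparison, its lists and rule were chosen with earlier results of these data known. Genes named beyond the rule were picked with their values in view. The Ws-2 list and the list of regulon genes in common were taken from supplementary tables of the study, IDs only. Alternatives were other added values and filters, quantile normalization, median-of-ratios scaling and removal of a trend with GC content.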

Additional observations from a re-analysis of the deposited data

Results flagged for a closer look

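A small set of genes had calls of opposite direction between the same 2 lines at different times; these differences were not tested, since each rests on 1 pooled value per group. COR15A had a log2 ratio of sw:cbf123 over sw:cbf23 of -1.52 at 2 weeks, against 1.05 in the warm, and -0.79 at 24 h. Of the further genes called in opposite directions in the warm and at 2 weeks, the 5 whose smaller ratio was largest were each listed at 0 in one line at each of the 2 times. ATCG00100 had 7.76 at 2 weeks and -8.05 in the warm, AT2G33950 had 7.81 and -7.14, ATCG00320 had -6.87 and 7.07, AT3G29633 had -5.99 and 4.99, and AT2G40802 had 4.43 and -4.35. Their ratios follow from the 0.5 FPKM added and measure no fold.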

How the results depend on the processing

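No paired analysis was possible because the table gives 1 pooled column per group, so leaving out each replicate and the replicate block were not run. With genes at 5 FPKM or more in either line, 50 were higher and 96 lower, and 21 and 37 were called alike with the warm and with 24 h. With protein-coding genes above 0 in both lines only, an alternative chosen after seeing the data, 38 were higher and 114 lower, and 13 and 48 were called alike with the warm and with 24 h. The Ws-2 list kept 0 higher and 10 to 13 lower under every alternative run, with a median from -0.28 to -0.21. Of 70 named genes with a value, none reversed. Under some alternative 6 lost their call (FMO GS-OX4, AT1G68500, AT5G13200, CML38, ALD1 and CYP81F2). COR15B gained one under quantile normalization (-1.09). Not all 70 had a value under each alternative, and those that dropped out were counted as neither lost nor reversed. With genes at 5 FPKM or more 63 had a value, with no added value 44, and with protein-coding genes above 0 in both lines 43. The median of all genes moved to 0.01 under quantile normalization and under median-of-ratios scaling. Unknown depth and the lack of replicates limit every statement, most of all below 5 FPKM.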
